A study of Homo sapiens with 8 samples.

Results

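Histone genes were taken as all probe sets whose gene symbol names a member of the H1, H2A, H2B, H3 or H4 gene families (H1-number, H2AC-, H2BC-, H3C- or H4C-number). There were 64 such probe sets, 1 per gene, among 21448 transcript probe sets: 9 for H1, 14 for H2A, 17 for H2B, 9 for H3 and 15 for H4. RefSeq lists 73 genes with such symbols, and 9 of them were not analysed here.

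Expression was measured on 8 1-colour Affymetrix arrays, 1 for each of 4 treatments in 2 human T cell lines, to ask how a DNA demethylating agent and an inhibitor of the histone methyltransferase EZH2 act together. MT-1 is labelled as an adult T cell leukaemia line and MT-2 as an HTLV-1 infected line, HTLV-1 being the virus that causes this leukaemia. Cells were left untreated (control) or received OR21, the demethylating agent, EPZ-6438 (tazemetostat), the EZH2 inhibitor, or both, and were harvested after 96 h with the compounds added at seeding and again at 48 h. MT-1 cells received 500 nM OR21 and 2500 nM EPZ-6438, and MT-2 cells 100 nM and 500 nM, so that a difference in response between the lines cannot be told apart from a difference in dose. Each line is 1 culture model with 1 array per treatment. A difference within a line therefore has no replicate error and no test, and the fits below take their spread from arrays of different lines and treatments.

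Core histones H2A, H2B, H3 and H4 form the octamer around which DNA is wrapped, and linker histones of the H1 family bind where DNA enters and leaves it. Most of the genes lie in dense clusters, are transcribed mainly during S phase, when new DNA must be packaged, and give mRNAs that end in a stem-loop rather than a poly(A) tail. A few members depart from this: H1-6, H2AC1 and H2BC1 are best known from the testis, H1-8 from the oocyte, H1-7 from spermatids, and H1-10 is made outside S phase. OR21 acts on CpG methylation, and 6 members described in detail here are therefore introduced with their promoter sequence.

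Promoters were available from RefSeq (GRCh38.p14) for 60 of the 64 genes. The 250 bases before the start site are printed 5′ to 3′ on the gene's own strand, with each CpG in capitals, for 6 members chosen after their values were seen. The first 4 were higher with both agents in MT-1, and of these H4C5, H1-5 and H1-6 also with OR21 alone. They are H4C5 (chr6:26204360-26204609, plus strand), H1-5 (chr6:27867589-27867838, minus), H4C13 (chr6:27873535-27873784, minus) and H1-6 (chr6:26108136-26108385, minus). The last 2 were lower in both lines: H2BC26 (chr1:228457853-228458102, plus) and H3C10 (chr6:27809801-27810050, plus).
H4C5: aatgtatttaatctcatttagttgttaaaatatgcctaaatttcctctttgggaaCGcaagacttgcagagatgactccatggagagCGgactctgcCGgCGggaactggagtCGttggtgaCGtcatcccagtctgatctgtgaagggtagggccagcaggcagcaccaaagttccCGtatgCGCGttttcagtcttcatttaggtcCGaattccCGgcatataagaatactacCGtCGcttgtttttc
H1-5: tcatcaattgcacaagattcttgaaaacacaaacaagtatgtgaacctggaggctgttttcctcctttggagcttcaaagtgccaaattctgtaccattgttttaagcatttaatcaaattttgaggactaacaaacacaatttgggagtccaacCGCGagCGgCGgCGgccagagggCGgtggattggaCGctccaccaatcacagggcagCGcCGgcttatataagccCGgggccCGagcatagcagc
H4C13: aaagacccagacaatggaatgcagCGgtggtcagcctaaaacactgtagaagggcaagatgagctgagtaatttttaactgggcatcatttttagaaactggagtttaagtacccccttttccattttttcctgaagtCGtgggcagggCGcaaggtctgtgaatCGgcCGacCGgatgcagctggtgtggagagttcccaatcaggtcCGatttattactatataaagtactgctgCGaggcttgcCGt
H1-6: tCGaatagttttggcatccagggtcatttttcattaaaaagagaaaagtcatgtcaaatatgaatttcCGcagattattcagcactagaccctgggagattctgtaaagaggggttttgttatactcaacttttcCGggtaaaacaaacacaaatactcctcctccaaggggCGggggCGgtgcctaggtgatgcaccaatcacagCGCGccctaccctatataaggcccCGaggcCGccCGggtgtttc
H2BC26: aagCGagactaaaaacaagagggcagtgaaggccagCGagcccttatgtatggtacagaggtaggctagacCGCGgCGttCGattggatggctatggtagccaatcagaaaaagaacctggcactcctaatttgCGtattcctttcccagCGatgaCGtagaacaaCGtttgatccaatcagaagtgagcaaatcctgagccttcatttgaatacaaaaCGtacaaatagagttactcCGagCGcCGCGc
H3C10: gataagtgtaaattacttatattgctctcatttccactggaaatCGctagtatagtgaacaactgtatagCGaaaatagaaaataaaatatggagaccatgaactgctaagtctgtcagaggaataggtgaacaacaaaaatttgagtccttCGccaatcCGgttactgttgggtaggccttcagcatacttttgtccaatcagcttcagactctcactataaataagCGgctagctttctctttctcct

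These windows hold 13 CpG sites for H4C5, 11 for H1-5, 9 for H4C13, 10 for H1-6, 15 for H2BC26 and 5 for H3C10. Over the 60 histone promoters the number ran from 2 to 26 with a median of 9, against a median of 11 over all 35116 promoters in the table. The other genes with a value higher by 1 or more with OR21 in MT-1 held 15 sites (H1-1), 12 (H2BC1), 11 (H2AC1) and 4 (H4C4). The windows of H2BC1 and H2AC1 largely overlap, so the same sites can count for both. The higher genes thus spanned 4 to 15 sites, on both sides of the histone median, as did the lower pair. Methylation of these sites was not measured here.

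The histone classes differed in the short motifs of the same windows, searched on both strands. ATTTGCAT, the octamer bound by POU2F1, was present in 14 of 17 H2B and 8 of 13 H2A promoters and in no H1, H3 or H4 promoter, against 1.63% of all promoters. Some of these H2A and H2B windows overlap on opposite strands, so the same octamer can count in both classes. Such pairs are H2AC1 with H2BC1, H2AC6 with H2BC4, H2AC8 with H2BC8, H2AC11 with H2BC11, H2AC14 with H2BC14 and H2AC20 with H2BC21. AAACACA, the H1 box, was present in 7 of 9 H1 promoters and in none of the other histone promoters, against 4.82% of all. GGTCC, a core of the H4 element, was present in 12 of 13 H4 promoters, against 40.7% of all. CCAAT was found in 49 of the 60 (32.0% of all) and TATAAA in 40 (10.7% of all), and none of the 5 motifs contains another. These are matches of letters and do not show that a factor was bound.

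Dim probe sets were left out: 12942 probe sets, and 60 of the 64 histone genes, had at least 1 array at or above 6.57, the median log2 value of the whole table, and were compared. H1-7, H1-8, H4C6 and H4C7 did not. Background was set per array at the 95th percentile of 612 negative-control probe sets and lay between 7.19 and 7.80. Of the 64 histone genes, 40 were above background on all 8 arrays, 19 on some and 5 on none (H1-7, H1-8, H2BC4, H4C6 and H4C7). Where only 1 of 2 arrays was above background, the difference is given as a bound against the background of the dimmer array, written "at least". Where neither was, or the brighter value did not reach the other array's background, no difference is given. All levels and differences are log2 values, and levels are compared only between arrays for the same probe set.

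With OR21 most histone genes were lower in both lines, and a few were much higher in MT-1. In MT-1, 45 of the 60 lay below 0 (54.8% of all probe sets), and in MT-2, 51 of the 60 (56.3%). In MT-1, 8 of the 60 were higher than control by 1 or more (background over all probe sets 5.35%) and 4 were lower by 1 or more (3.75%), with a median difference of -0.31 against -0.06 for all probe sets. In MT-2, 3 were higher (2.36%) and 11 lower (1.69%), with a median of -0.58 against -0.06. With both agents 9 were higher (11.2%) and 6 lower (9.64%) in MT-1, and 3 were higher (5.05%) and 20 lower (1.95%) in MT-2, where 55 of the 60 lay below 0 (51.5% of all probe sets) and the median was -0.80 against -0.02. The share of histone genes lower by 1 or more in MT-2 was thus above that of all probe sets. In MT-1 with both agents the shares at 1 or more were near those of all probe sets. There, 40 of the 60 lay below 0 (53.4% of all probe sets), with a median of -0.34 against -0.05.

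The counts of higher genes depend on dim probe sets. Among histone genes above background on both arrays, 4 of 48 were higher by 1 or more with OR21 in MT-1 (1.69% of all such probe sets) and 3 of 50 with both agents (5.84%). In MT-2 the number was 0 of 44 with OR21 (0.873%) and 0 of 44 with both agents (3.32%). With both agents in MT-1 the share of histone genes was near that of all probe sets. Of the 9 compared histone genes that were not above background on the MT-1 control array, 5 were above it with OR21 (16.7% of all such probe sets) and 7 with both agents (27.5%). Of the 15 in MT-2, 1 was above it with both (13.6%).

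**Figure D1:**
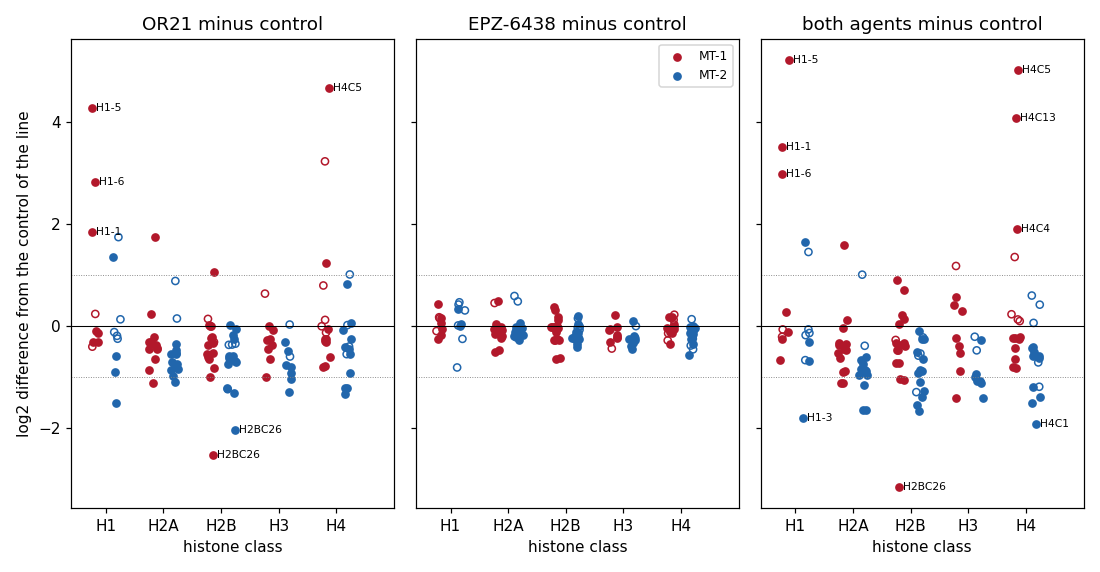
Log2 difference from the control array of the same line for all 64 histone genes, by class (x axis), with OR21, EPZ-6438 and both agents; 1 point per gene and line, MT-1 red and MT-2 blue. Open circles are genes for which background allows no difference to be given, filled circles show the deposited difference even where only a bound can be given, and dotted lines mark differences of 1; H4C5, H1-5, H1-6, H1-1 and, with both agents, H4C13 stand above the rest in MT-1 and H2BC26 below.

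Among linker histones, a few genes were much higher with OR21 in MT-1 while the abundant ones were level or lower. H1-5, one of the replication-dependent H1 genes, read 8.17 on the MT-1 control array, 12.44 with OR21, 7.99 with EPZ-6438 and 13.39 with both agents. On the MT-2 arrays it read 6.52, 6.32, 6.26 and 5.84 in the same order, all under background. H1-5 was therefore 4.28 higher with OR21 (19.4-fold) and 5.22 higher with both agents (37.3-fold) in MT-1, and was not measurable in MT-2.

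H1-1, a linker histone found in few tissues, read 8.07, 9.92, 8.50 and 11.58 in MT-1 and 7.48, 8.82, 6.66 and 9.12 in MT-2, for control, OR21, EPZ-6438 and both agents. It was the linker histone that was higher with OR21 in both lines, by 1.85 in MT-1 and by at least 1.02 in MT-2, and with both agents by 3.52 and at least 1.32. H1-6, the testis linker histone, read 6.22, 9.04, 6.12 and 9.20 in MT-1 and 5.11, 6.86, 5.57 and 6.56 in MT-2. It was above background only on the 2 MT-1 arrays that received OR21, by at least 1.58 and at least 1.74 over control.

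The other linker histones showed no such increase. H1-3 read 11.93, 11.61, 11.66 and 11.26 in MT-1 and 10.01, 8.50, 10.04 and 8.19 in MT-2, so that it was 1.51 lower with OR21 and 1.82 lower with both agents in MT-2, and 0.32 and 0.67 lower in MT-1. H1-2 and H1-4 stayed within 0.31 of control in MT-1, and with OR21 in MT-2 they were 0.91 and 0.59 lower. H1-10 was above background only in MT-1, between 7.81 and 8.23. H1-7 and H1-8 read between 4.18 and 5.79 on all arrays, under background, so that of the germ cell linker histones only H1-6 became measurable.

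Among H4 genes, which encode the same protein from many copies, H4C5 had the largest difference with OR21 of any histone gene measured above background. It read 9.44 on the MT-1 control array, 14.12 with OR21, 9.61 with EPZ-6438 and 14.47 with both agents. In MT-2 it read 16.92, 16.66, 16.65 and 16.32, above every MT-1 array. H4C5 was 4.68 higher with OR21 in MT-1 (25.6-fold) and 5.03 higher with both agents (32.7-fold), and in MT-2 it was 0.26 and 0.60 lower. The 2 lines were thus 7.47 apart untreated and 1.85 apart with both agents.

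H4C13 read 4.11, 7.34, 4.32 and 8.20 in MT-1 and 4.23, 5.24, 4.36 and 4.82 in MT-2. It was above background only on the 2 MT-1 arrays that received OR21, and with both agents it was at least 0.74 higher than control. With OR21 alone it did not reach the background of the control array, so no difference is given. H4C4 read 6.67, 7.91, 6.60 and 8.58 in MT-1 and 7.01, 7.82, 6.91 and 7.42 in MT-2, which gives at least 0.45 with OR21 and at least 1.12 with both agents in MT-1.

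Other H4 genes were lower. H4C14 and H4C15, near-identical copies whose signals may be shared, read 16.01 and 15.90 on the MT-1 control array, 15.40 and 15.12 with OR21, 15.97 and 15.77 with EPZ-6438, and 15.21 and 15.07 with both. In MT-2 they read 13.98 and 13.72, then 12.63 and 12.51, 13.84 and 13.60, and 12.45 and 12.32, so that OR21 was followed by levels 1.34 and 1.22 lower in MT-2 and 0.62 and 0.78 lower in MT-1. Their 250-base promoter windows were identical. H4C1 and H4C9 were measurable mainly in MT-2. H4C1 read 11.90, 10.67, 11.32 and 9.98 there, 1.23 lower with OR21 and 1.92 lower with both agents, and H4C9 read 11.33, 10.40, 10.97 and 10.13, 0.93 and 1.20 lower.

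Among H2A genes, the testis member H2AC1 was the only one with a value higher by 1 or more in MT-1, with OR21 or with both agents. It read 6.20, 7.96, 6.65 and 7.79 in MT-1 and 3.86, 4.74, 4.45 and 4.87 in MT-2, which is at least 0.50 higher with OR21 and at least 0.33 higher with both agents in MT-1 and not above background in MT-2. H2AC8 read 15.87, 15.44, 15.72 and 14.96 in MT-1 and 14.90, 13.79, 14.74 and 13.25 in MT-2, and H2AC4 read 11.03, 11.27, 11.07 and 11.00 in MT-1 and 12.13, 11.27, 11.85 and 10.47 in MT-2. Both were 1.65 lower with both agents in MT-2, and in MT-1 H2AC8 was 0.92 lower and H2AC4 0.04 lower. The class medians were -0.36 with OR21 and -0.46 with both agents in MT-1, and -0.63 and -0.88 in MT-2.

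Among H2B genes, H2BC26 stood lowest. It lies apart from the large clusters, on chromosome 1 beside H2AC25, with which it shares an upstream region. H2BC26 read 11.63, 9.09, 10.97 and 8.47 in MT-1 and 9.27, 7.22, 9.01 and 7.59 in MT-2. All 4 arrays that received OR21 lay below the 2 of their line that did not. The difference was -2.54 with OR21 (5.81-fold lower) and -3.16 with both agents (8.94-fold lower) in MT-1, and at least 1.70 and at least 1.63 lower in MT-2, where it reached background. Its neighbour H2AC25 was 0.87 and 1.12 lower in MT-1 and 0.36 and 0.67 lower in MT-2.

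H2BC1, the testis H2B that neighbours H2AC1, read 7.85, 8.92, 7.59 and 8.76 in MT-1 and between 4.87 and 5.24, under background, in MT-2. It was 1.07 higher with OR21 and 0.91 higher with both agents in MT-1. Several replication-dependent H2B genes were among the larger decreases. H2BC11 was 0.65 and 1.05 lower in MT-1 and 1.32 and 1.57 lower in MT-2 for OR21 and both agents, and H2BC13 was 1.01 and 1.07 lower in MT-1 and 1.22 and 1.11 lower in MT-2. H2BC6 and H2BC7 were 1.40 and 1.28 lower with both agents in MT-2, and in MT-1 they differed by 0.14 and -0.47.

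Among H3 genes, H3C10 was lower in both lines. It read 10.73, 9.71, 10.42 and 9.31 in MT-1 and 9.93, 8.63, 9.65 and 8.51 in MT-2, so that in each line both OR21-treated arrays lay below both others. With OR21 the difference was -1.01 for MT-1 cells and -1.30 for MT-2 cells, and with both agents -1.41 and -1.42. The H3 class had a median of -0.27 with OR21 in MT-1 and -0.77 in MT-2. No H3 gene measured above background on both arrays was higher by 1 or more under any treatment.

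**Figure D2:**
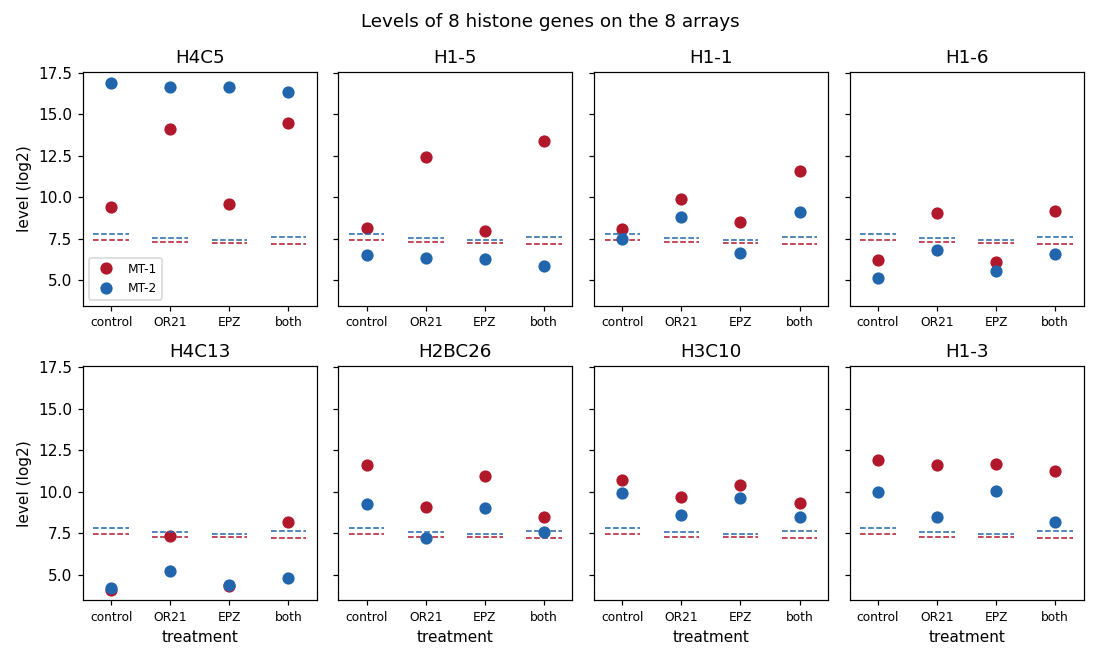
Log2 levels of 8 histone genes on the 8 arrays, 1 panel per gene, with treatment on the x axis, MT-1 in red and MT-2 in blue; dashed lines give the background of each array. H4C5 and H1-5 are high in MT-1 only with OR21 or both agents, and H2BC26 and H3C10 are lower on the OR21-treated arrays of both lines.

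OR21 was present on 4 arrays, 2 per line, and this gives comparisons of separate arrays: OR21 with control, and both agents with EPZ-6438 alone, in each line. Of the 40 histone genes above background on all 8 arrays, 30 were lower in all 4 of these comparisons and 0 were higher in all 4, against 1567 (22.6%) and 649 (9.38%) of 6919 probe sets. Restricting to genes above background throughout leaves out those that emerged with treatment, such as H1-6, H4C13 and H2AC1. In these bulk RNA samples, fewer cells expressing a gene and less RNA per cell cannot be told apart.

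A pair of histone genes fell with OR21 when the fit took cell line, OR21 and EPZ-6438 as terms (limma, 4 residual degrees of freedom, Benjamini-Hochberg over 12942 probe sets, 0.162% of them called, 0.116% higher and 0.0464% lower). H2BC26 fell by 2.13 (SE 0.24, adjusted p = 0.0405) and H3C10 fell by 1.14 (SE 0.13, adjusted p = 0.0405), each lower on OR21 in 4 of 4 comparisons. Before adjustment, 33 of the 60 were lower and 6 higher at p under 0.05, against 12.3% and 9.3% of all probe sets. The next in order were H4C15 (-0.99, SE 0.15, adjusted p = 0.0688), H1-6 (2.16, SE 0.33, adjusted p = 0.0688), H2BC11 (-1.01, SE 0.16, adjusted p = 0.0706) and H1-1 (2.18, SE 0.36, adjusted p = 0.0706), which did not pass. H2BC26 and H1-1 were above background on 6 of the 8 arrays and H1-6 on 2, so their fitted values are not measured sizes. H1-6 also passed the filter only through arrays that received OR21.

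These calls were narrow. H3C10 lost its call without any 1 of the 8 arrays (adjusted p from 0.0688 to 0.221) and H2BC26 without any 1 except MT-2 with both agents (adjusted p from 0.0290 to 0.221), while their differences stayed between -1.19 and -1.08 and between -2.39 and -1.94. With a variance prior that follows the mean level, 14 histone genes were called in place of 2, and the share of all probe sets called rose from 0.162% to 1.01%.

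The comparisons of each treatment with control over both lines, which rest on 2 arrays a side and 3 residual degrees of freedom, called no histone gene and no other probe set (0.0%). At unadjusted p under 0.05 limma gave 22 histone genes for OR21 (17 lower and 5 higher, against 5.12% and 3.21% of all probe sets and 8.34% together) and 29 for both agents (24 lower and 5 higher, against 10.0% and 9.19% of all and 19.2% together). Leaving out the MT-2 array with both agents leaves only the MT-1 array for that treatment. The fit then no longer compares both agents over both lines, and its calls are not read as a result.

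The lines differed in how some histone genes responded. A term for the difference of the OR21 response, MT-2 minus MT-1, was added after the values were seen, and it called 7 histone genes (2.84% of all probe sets, 2.02% lower and 0.819% higher), all 7 with the lower response in MT-2. H4C5 differed by -5.06 (SE 0.32, limma adjusted p = 0.000298) and H1-5 by -5.15 (SE 0.47, limma adjusted p = 0.00153). Both kept the call without any 1 array and under each other setting run. H4C13, H4C9, H1-6, H2BC1 and H1-3 (-1.32) had limma adjusted p between 0.0125 and 0.0465 and lost the call without some arrays. H4C13 and H1-6 passed the filter only through arrays that received OR21, so their calls are no support for a response. H1-5, H4C13, H1-6 and H2BC1 were under background on every MT-2 array, so their response there could not be measured and the value fitted for H1-5 is not the size of a difference in response. H4C9 was under background on 3 of 4 MT-1 arrays. H4C5 and H1-3 were measured on all 8. The number of calls ran from 2 (without the MT-1 control, MT-1 EPZ-6438, MT-2 control, MT-2 EPZ-6438 or MT-2 combination array) to 11 (without the MT-1 OR21 array, with 9.16% of all probe sets called), with 4 without the MT-1 combination array and 3 without the MT-2 OR21 array.

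EPZ-6438 alone left histone genes close to control, with most slightly lower. None of the 60 differed by 1 or more in MT-1 (1.03% of all probe sets higher and 0.294% lower) or in MT-2 (0.896% and 0.355%), where few probe sets of any kind did. Below 0 lay 44 of the 60 in MT-1 (53.0% of all probe sets) and 46 in MT-2 (52.2%). The differences ran from -0.66 to 0.49 and from -0.82 to 0.59, with a median of -0.07 in the first line and -0.14 in the second. limma called 0 histone genes for EPZ-6438 against control (0 at unadjusted p under 0.05, 2.2% of all probe sets) and 0 for EPZ-6438 received or not (1 at unadjusted p under 0.05, 9.12% of all). The lowest differences measured above background were -0.66 for H2BC26 in MT-1 and -0.58 for H4C1 in MT-2, both genes that were lower still with OR21.

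Adding EPZ-6438 to OR21 changed few histone genes further. Both agents minus OR21 gave 1 histone gene with a difference of at least 1 upward in MT-1 (5.77% of all probe sets) and 0 downward (1.38%), and 0 in either direction in MT-2 (2.4% and 0.989%). The gene was H1-1, which was 1.67 higher with both agents than with OR21 in MT-1 and 0.30 higher in MT-2. H1-5 was 0.94 higher and H4C5 0.35 higher in MT-1, and H2BC26 was 0.62 lower. In MT-2 the median was -0.22 against 0.06 for all probe sets, with 44 of 60 below 0 (43.4% of all). Adding OR21 to EPZ-6438 gave 10 higher (9.46%) and 2 lower (6.15%) in MT-1, and 1 higher (2.79%) and 15 lower (0.881%) in MT-2. The comparisons with both agents and with OR21 share the control arrays, and their values are set side by side only.

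The 2 lines differed in the levels of most histone genes, as they did for most probe sets. Over the 4 treatments, 42 of the 60 differed between MT-2 and MT-1 (limma with treatment as a term, adjusted p under 0.05, 63.4% of all probe sets called), 8 higher in MT-2 (22.7% of all) and 34 lower (40.7%), with a median of -0.73 against -0.30. The total of 42 was near the share of all probe sets, and with single arrays left out it was 37 to 41. The spread here is between treatments and not between cultures of a line.

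H3C11 differed most. It read 12.58, 12.58, 12.53 and 13.16 in MT-1 and between 5.45 and 5.69, under background, in MT-2, a difference of at least 5.10 (adjusted p = 3.7e-06 in limma). H1-5 was at least 2.89 higher in MT-1 over the 4 treatments (limma adjusted p = 0.0133), a call that was lost in limma without the MT-1 or the MT-2 array with OR21 (adjusted p = 0.0617 each). H2BC1 was at least 0.67 higher in MT-1, and H1-2 was 2.46 higher (SE 0.18, limma adjusted p = 9.2e-05). H2AC1 was called lower in MT-2 by the fit, but its mean was under background in both lines and no size is given.

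In the other direction, H4C5 was 4.72 higher in MT-2 over the 4 treatments (SE 1.03, limma adjusted p = 0.00794). H4C1 was at least 3.66 higher over the same arrays. H3C1 and H4C9 were above background on 1 of 4 MT-1 arrays and on all 4 MT-2 arrays, and untreated they were at least 3.68 and at least 3.87 higher in MT-2. H3C1 read 6.12, 6.75, 5.67 and 7.30 in MT-1 and 11.14, 10.81, 10.80 and 10.20 in MT-2. H2BC9 read 10.65, 10.68, 10.63 and 10.69 in MT-1 and 14.07, 13.47, 13.92 and 13.21 in MT-2, with means of 10.66 and 13.66 (limma adjusted p = 6.0e-05). The groups of 4 did not overlap for any of these 5 genes, which were named for the size of their differences. The share of all probe sets without overlap was not counted, and 63.4% of all were called between the lines.

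**Figure D3:**
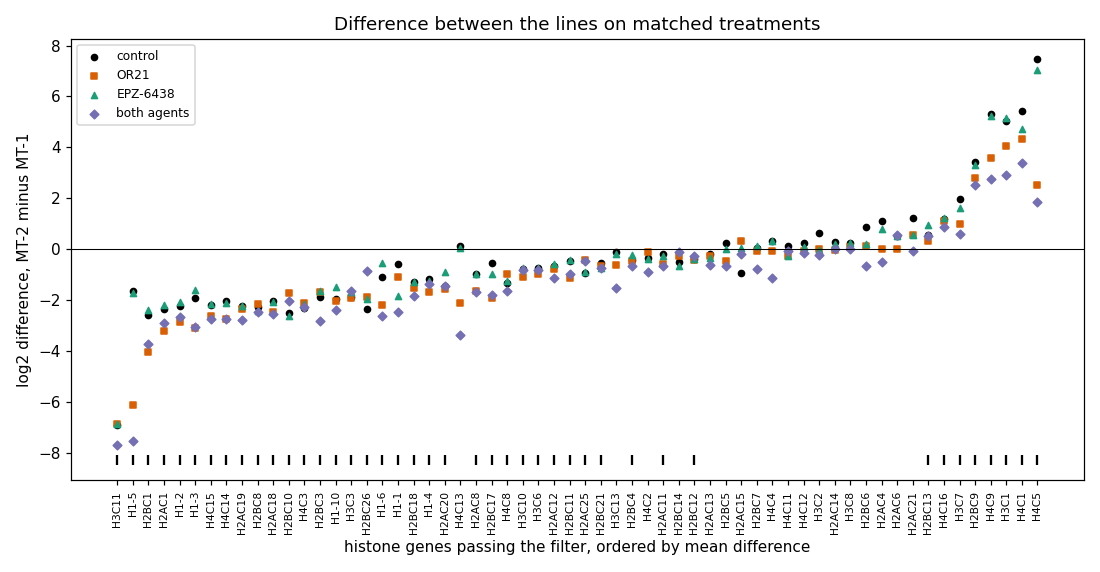
Log2 difference MT-2 minus MT-1 on matched treatments for the 60 compared histone genes, ordered by their mean (x axis), with 1 point per treatment and a tick at the bottom under each gene called by limma. H3C11 lies lowest and H4C5 highest, and for H4C5 the arrays with OR21 (orange and violet) lie well below the arrays without it.

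In RefSeq order, some genes that were higher with OR21 in MT-1 lay between genes that were not, and others lay side by side. On chromosome 6 the genes with probe sets form runs of 32, 5 and 12. H4C5 lies between H2BC7, which was 0.61 lower with OR21 in MT-1, and H2BC8, which was 0.33 lower. H1-6 lies between H4C3 (0.26 lower) and H2BC4, which was under background. H1-5 and H4C13 flank H3C11, which read 12.58 on both the control and the OR21 array. H2AC1, H2BC1 and H1-1, all 3 higher, are consecutive at one end of the first run.

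**Figure D4:**
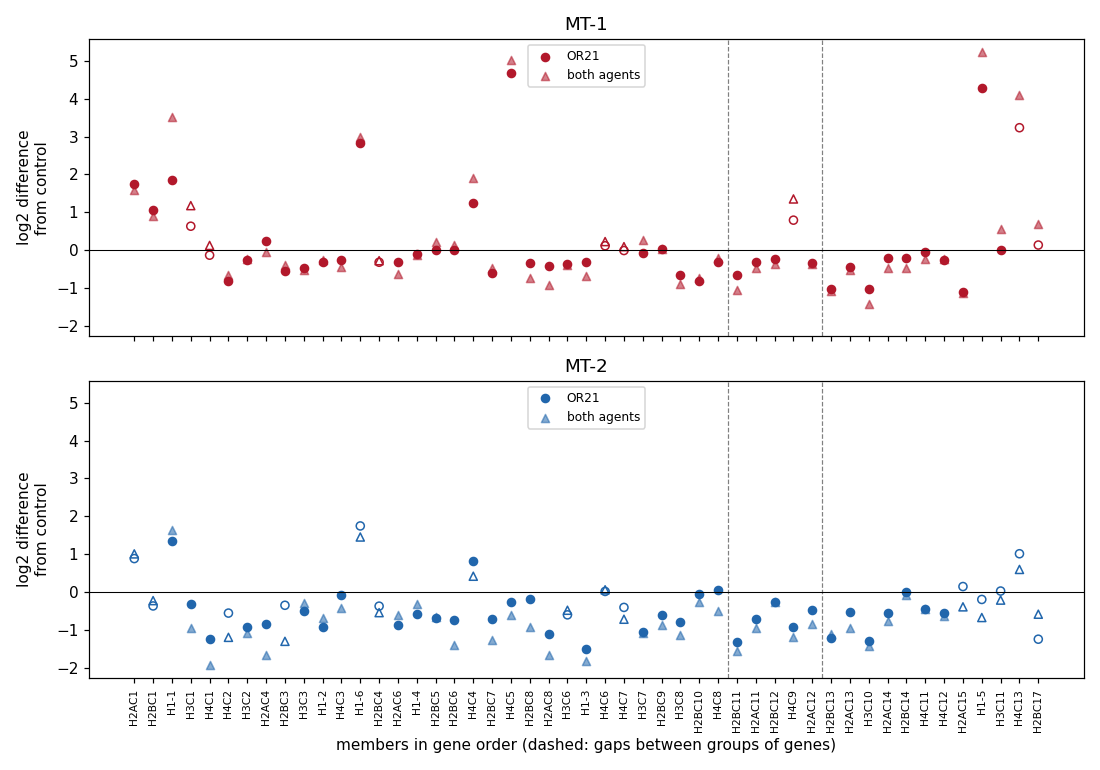
Log2 difference from control (y axis) for the chromosome 6 histone genes in RefSeq order (x axis, order only), MT-1 above and MT-2 below, with circles for OR21 and triangles for both agents; open symbols are genes for which background allows no difference to be given and dashed lines separate the runs of genes. In MT-1, H1-6 and H4C5 stand as single tall points among neighbours near or below 0, H1-5 and H4C13 lie on either side of H3C11, and H2AC1, H2BC1 and H1-1 are above 0 side by side, and most points are below 0 in MT-2.

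Genes that act with histone genes were also listed, and their values are given beside those above with no test of the difference. Of all probe sets, 5.35% were higher and 3.75% lower by 1 or more with OR21 in MT-1, and 2.36% and 1.69% in MT-2. The median over all probe sets was -0.06 in each line. Of the variant histones outside the families above, 10 of 17 listed were compared, and 0 differed by 1 or more with OR21 in either line. The median difference was -0.02 (MT-1) and -0.13 (MT-2), and H2AZ1, an H2A variant at promoters, differed by -0.28 and -0.22. Of 20 genes for histone transcription and 3′ end processing, 19 were compared. In MT-1, 0 were higher and 2 lower by 1 or more with OR21, namely LSM10, a component of the U7 particle that trims histone mRNA, by 1.18 and the helicase UPF1, which acts in histone mRNA decay, by 1.01. In MT-2, 0 differed by 1 or more, and the medians were -0.28 and -0.19.

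Of 25 histone chaperone and assembly genes, 24 were compared, with 0 higher and 1 lower by 1 or more with OR21 in each line, and a median of 0.07 (MT-1) and -0.17 (MT-2). ASF1A, which carries H3 and H4 to new DNA, was 0.39 lower in MT-1 and 1.10 lower in MT-2, and CHAF1A, a subunit of the assembly factor CAF-1, was 0.37 lower in MT-1 and read 9.22 on both MT-2 arrays. None of these 3 lists had a gene called by limma for OR21 received or not. At unadjusted p under 0.05 in that fit, 1 of 10, 5 of 19 and 5 of 24 were lower (12.3% of all probe sets) and 0 higher (9.3%). For OR21 against control across lines, 0, 1 and 1 were lower (5.12% of all).

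S phase genes were measured because most histone genes are transcribed in S phase. Of 28 listed, 27 were compared. With OR21, 0 differed by 1 or more in MT-1 (5.35% of all probe sets higher and 3.75% lower), with a median of -0.02 against -0.06. In MT-2, 0 were higher (2.36%) and 4 lower (1.69%), with a median of -0.37 against -0.06. With both agents the medians were -0.25 and -0.52, against -0.05 and -0.02 for all probe sets. MCM6, a subunit of the replicative helicase, was 0.54 lower with OR21 in MT-1 and 1.14 lower in MT-2, and PRIM1, which makes primers for replication, was 0.37 and 0.72 lower. limma called 0 of the 27 for OR21 received or not, with 11 lower and 0 higher at unadjusted p under 0.05 (12.3% and 9.3% of all probe sets). For OR21 against control across lines, 6 were lower and 1 higher (5.12% and 3.21% of all). S phase genes were thus lower in the line in which more histone genes were lower, and their part in the histone values was not tested.

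The T cell label was checked with 9 markers. IL2RA, CCR4 and CD5 were above background on all 8 arrays, CD4 on the 4 MT-2 arrays, and CD7 on 5, while CD3D, CD3E, CD3G and CD2 were under background on all. Of 17 measured markers of B, myeloid, NK, erythroid, epithelial, endothelial and fibroblast cells, KRT8, an epithelial keratin, was the only one above background on all 8 arrays, and it read 7.77, 10.02, 7.93 and 12.91 in MT-1. The epithelial marker EPCAM was above background only in MT-1 with both agents (8.66), and HBA1, a globin gene, read 6.94, 8.07, 7.86 and 10.00 in MT-1. Of the 17, 10 were under background on all arrays: MS4A1, PAX5, CD14, CSF1R, LYZ, KLRD1, ALAS2, CDH5, PECAM1 and COL1A1. Other markers of the same cell types were not. NKG7 (NK cells) read between 10.85 and 11.41 on the 4 MT-2 arrays and was under background in MT-1. COL1A2 (fibroblasts) was above background on 6 arrays and CD79A (B cells) on 5. MPO (myeloid cells) was above background only in MT-1 with both agents (7.30). The part of these markers in the histone values was not tested.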

How the data were processed

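Expression was measured once per line and treatment on 8 arrays. The deposited log2 values were made by the authors with RMA, per the submitters' processing notes; the version, annotation, genome build and any later rescaling were not found in the labels or file headers, and the log base is taken from RMA. The table held 24351 entries, of which 2903 control entries were left out of tests. Gene symbols came from GEO's platform annotation, 1 symbol for 17709 probe sets and none for 3739.

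Within a line, differences were taken from the array of the control without a test. limma 3.58.1 in R 4.3.3 (lmFit and eBayes) fitted line and treatment (3 residual degrees of freedom), line with OR21 and EPZ-6438 as factors (4), and, added later, a line by OR21 term (3), over 12942 probe sets with Benjamini-Hochberg adjustment at 0.05. The script was tested on simulated data. Since a group is 1 array, p-values measure the spread between arrays of different treatments and lines. The number of arrays limits the precision. Doubtful copies (H4C14 and H4C15, H2AC18 and H2AC19, H2AC11 and H2AC13) may share signal.

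The histone genes and all lists were chosen with earlier results of these data known. Named are histone genes with a difference of 1 or more (the 20 largest in full), those called (at most 5 per direction and comparison), the germ cell members and H1-10, and up to 4 genes per other list. The other settings were median centring, cyclic loess, no filter, probe sets above background on both arrays, a trended prior and leaving out each array.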

Additional observations from a re-analysis of the deposited data

Results flagged for a closer look

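The response to OR21 differed between the lines for 7 histone genes (2.84% of all probe sets) by a limma term for the difference itself, MT-2 minus MT-1. The fitted values were -5.15 for H1-5, -5.06 for H4C5, -2.82 for H4C13, -2.10 for H4C9, -1.58 for H1-6, -1.40 for H2BC1 and -1.32 for H1-3. Only those of H4C5 and H1-3, measured on all 8 arrays, are sizes: H1-5, H4C13, H1-6 and H2BC1 were under background on every MT-2 array and H4C9 on 3 of 4 MT-1 arrays, so these 5 fitted values have no order. H4C5 and H1-5 were called without any 1 of the 8 arrays (highest adjusted p in limma 0.00648 and 0.0226). The others were called on fewer of these 8 occasions: H4C13 on 3, H4C9 on 2, and H1-6, H2BC1 and H1-3 on 1 each. H4C13 and H1-6 passed the filter only through arrays that received OR21, so their calls are no support for a response. Doses differed between the lines, so line and dose cannot be told apart.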

How the results depend on the processing

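No paired analysis was possible because the labels give no replicate numbers to use as a block; cell line enters the fits as a term, so that treatments are compared within lines. Centring each array on its median moved the median of all probe sets by over 0.1 in MT-1 (OR21 -0.06 to -0.22, both agents -0.05 to -0.29, both agents minus EPZ-6438 -0.06 to -0.22) and untreated between the lines (-0.29 to -0.41, and 0.02 with loess). The histone medians moved with it: in MT-1 OR21 -0.48, EPZ-6438 -0.14, both agents -0.57 (11 genes lower by 1 or more) and both minus EPZ-6438 -0.45. With cyclic loess MT-1 gave 2 genes lower with OR21, a median of -0.042 with EPZ-6438, 3 lower and a median of -0.19 with both agents, 1 lower for both minus EPZ-6438, and -0.30 untreated between the lines. In MT-2 loess gave 2 higher for both minus EPZ-6438. The median of both agents minus OR21 in MT-1, 0.012, was -0.059 centred, 0.078 with loess, 0.026 unfiltered and -0.023 above background, so its sign is not settled. Restricted to genes above background on both arrays, 4 were higher with OR21, 3 with both agents and 4 for both minus EPZ-6438 in MT-1, and 0 for each in MT-2. The excess of both agents over the sum of single agents had a median of 0.08 in MT-1 (0.012 above background) and -0.10 in MT-2 (-0.17 with loess). In MT-2 the 1 gene with an excess over 1 became 0 above background, and the 1 under -1 became 0 both there and with loess. The 2 calls for OR21 became 14 with a trended prior and 0 to 1 leaving out arrays. The 7 calls for the response became 4 centred and 2 to 11 leaving out arrays, and the 0 for both agents 0 to 6. The 6 came only without the MT-2 array with both agents, which leaves that treatment with its MT-1 array alone. That fit no longer compares both agents over both lines, so the 6 are no support for a response to both agents. Of all comparisons of a value or count with its alternative, 194 kept it within the limits set and 46 moved. Of those for single named genes 175 kept their call and 53 lost it, and none changed direction. The arrays carry signal over background rather than depth: 24 of 64 histone genes were under background on at least 1 array.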
